A study of Mus musculus with 12 samples.

Results

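The response of wild type B lymphocytes to 3'3'-cGAMP was measured by comparing 3 libraries from cells exposed for 12 hours with 3 libraries from wild type control cells. Its members were all genes that passed a filter on low counts set by group, which left 14473 of the 54532 gene identifiers in the count table. Of the rest, 29717 had no count in any wild type library and 10342 had counts below the filter. B lymphocytes had been sorted from 3 wild type mice and from 3 mice labelled Tmem173-/-, and were cultured in flat-bottom plates before polyadenylated RNA was sequenced. Tmem173 encodes STING. The whole series held 12 libraries, 3 in each of 4 groups, from wild type or Tmem173-/- B cells with or without cGAMP. The labels give no strain, sex, age or sorting markers, and do not say what the control cells received. They do not say which control and cGAMP libraries came from the same mouse either, so p-values measure the spread between these libraries, which may in part be technical.

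STING is a receptor of the endoplasmic reticulum that binds cyclic dinucleotides. Some of these are made by bacteria, as 3'3'-cGAMP is, and another is made in the cell by the DNA sensor cGAS. Bound STING recruits the kinase TBK1, which activates IRF3 and leads to transcription of type I interferon genes, and it also activates NF-kB. Secreted interferon binds its receptor on the same or other cells, and the JAK kinases and STAT proteins then switch on the interferon-stimulated genes. Resting B cells hold antigen receptors, class II molecules and a set of lineage transcription factors at high levels.

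The 6 wild type libraries held 26835362 to 30971957 assigned counts each, with 18556 to 19727 genes detected. In the 6 libraries, on log2 CPM (counts scaled to library size), the first principal component held 63.0% of the variance and separated cGAMP from control, and the second held 12.4%. B cell markers were abundant in every library. Their summed level was 2980, 3610 and 3490 FPKM in the controls and 2100, 2540 and 2250 FPKM after cGAMP for 7 genes, where FPKM is CPM per kilobase of transcript. Levels of several genes were compared with each other only on this scale. Of 8 neutrophil markers, 2 were tested and Elane and Ly6g had 0 counts in all 6 libraries. Their sum was 15.4, 0.0929 and 0 FPKM in the controls and 38.6, 0.27 and 0.481 FPKM after cGAMP, so that both replicate 1 libraries stood above the rest. The summed T cell markers were 14.9, 8.3 and 8.55 FPKM in the controls and 21.1, 4.79 and 4.02 FPKM after cGAMP, the NK cell markers 0.859, 0.614 and 0.598 FPKM in the controls and 3.17, 0.256 and 0.133 FPKM after cGAMP and the monocyte and macrophage markers 25.4, 30.7 and 25.1 FPKM in the controls and 15, 15.4 and 8.77 FPKM after cGAMP. Adgre1 made up most of that sum in the controls, with means of 19.2 FPKM in the controls and 2.75 FPKM after cGAMP. The summed dendritic cell markers were 105, 112 and 239 FPKM in the controls and 734, 779 and 694 FPKM after cGAMP. Bst2 made up most of that sum, with means of 146 FPKM in the controls and 722 FPKM after cGAMP. Of the 7 dendritic cell markers 5 were tested and 3 called higher, Bst2 (2.30), which is also on the antiviral list, Zbtb46 (1.69) and Flt3 (1.09). Itgax (-0.54) and Xcr1 (-0.88) did not pass, and Siglech and Clec9a, below the filter, had 1 and 4 counts over the controls and 8 and 3 over the cGAMP libraries. The part of such cells in other results was not tested. The plasma cell markers summed to 340, 321 and 345 FPKM in the controls and 303, 270 and 302 FPKM after cGAMP, with 3 of 5 lower, Sdc1 (-1.87), Prdm1 and Xbp1. Control replicate 3 was the highest control for many interferon-stimulated genes. Control replicate 2 lay far below the other controls at a small set of genes with ribosomal RNA names, given with the ribosome results.

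Tmem173, the gene named in the genotype (chromosome 18), was at 91.2, 102 and 92.7 CPM in the controls and 44.7, 49.2 and 48 CPM after cGAMP in wild type cells. It was at 80.2, 94.7 and 103 CPM in Tmem173-/- controls and 82.9, 101 and 95.9 CPM in Tmem173-/- cells after cGAMP. The libraries labelled Tmem173-/- thus held as much Tmem173 RNA as wild type controls, and directions between genotypes rest on the labels. In wild type cells the transcript fell (log2 fold change -1.01 with SE 0.10, edgeR adjusted p = 8.07e-07).

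In wild type cells, 47.8% of the tested genes passed an edgeR adjusted p of 0.05, the threshold used throughout. Higher calls after cGAMP made up 22.4% of the genes tested (3238) and lower calls 25.4% (3683). These shares are the background for each count of called genes given below. Most called changes were modest. Of all called genes, 42.1% had changed by less than 1.5-fold, and 6.76% of the tested genes were called higher by 2-fold or more against 6.94% called lower by as much. At larger folds the rises outnumbered the falls. Rises of 4-fold or more were called for 312 genes and falls of that size for 202, and for 16-fold or more the counts were 48 and 10. Some of these genes, such as Aire, were near 0 in the controls and passed the filter only through the wild type cGAMP libraries. For genes that entered this way the rise is no separate evidence. How far they shape these counts was not tested. The genes at least 2-fold higher took up 1.71%, 1.72% and 1.70% of all counts in the controls and 5.51%, 5.72% and 5.35% after cGAMP. The genes at least 2-fold lower took up 5.66%, 6.38% and 5.88% in the controls and 2.39%, 2.56% and 2.54% after cGAMP. All values are relative to the RNA of the same library. In such bulk samples, fewer cells of a type and less RNA per cell cannot be told apart.

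**Figure D1:**
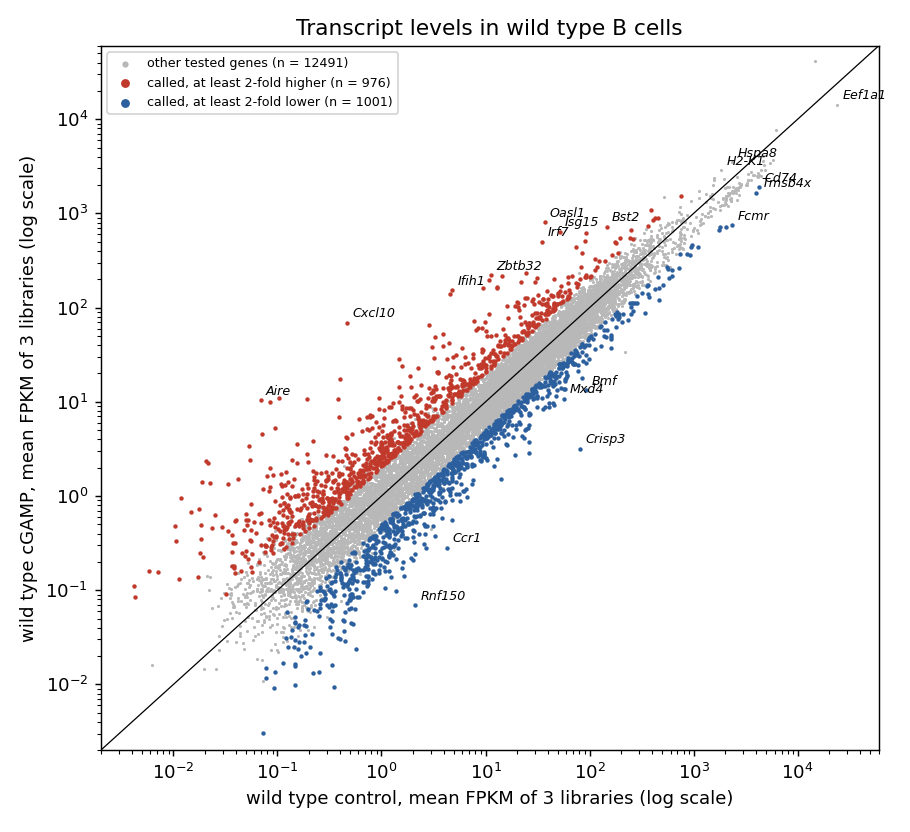
Mean FPKM of each tested gene in 3 wild type control libraries (x axis) and 3 wild type cGAMP libraries (y axis), both on log scales, with the line of equal levels. Genes with no count in a group are not drawn. Red points mark called rises of 2-fold or more, blue points called falls of that size. Oasl1 and Irf7 lie far above the line at high levels, and Fcmr, Crisp3 and Rnf150 far below it.

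Type I and III interferon genes were near the limit of detection in the controls. Their summed level was 0.34, 0 and 0.374 FPKM in the controls and 17.9, 31.9 and 24 FPKM after cGAMP. Of 20 such genes, 3 passed the filter and all 3 rose, Ifna4, Ifna1 and Ifna5. Ifna4 was at 0.0712, 0 and 0.0707 CPM in the controls and 4.44, 6.78 and 5.66 CPM after cGAMP. Ifna5 rose by 6.39 on the log2 scale. These genes passed only through the cGAMP libraries, so their rise is no separate evidence. Among the 17 genes below the filter, Ifna2 had 0 counts over the 3 controls and 47 over the 3 cGAMP libraries, and Ifnb1 had 0 and 24. The alpha genes are near copies of one another, so which of them rose is uncertain. With control replicate 3 left out the log2 fold change was 7.31 for Ifna1, and the other controls had no Ifna5 count.

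The interferon receptors and the kinases and STAT proteins behind them did not move as a block. The list had 5 of 18 tested members higher and 8 lower, against 22.4% higher and 25.4% lower among all tested genes. Its median log2 fold change was -0.12, against a median of -0.0036 over all tested genes. The rises included Stat2 and Irf9, whose proteins act in the complex that binds interferon response elements, by 1.28 and 0.72 on the log2 scale. Stat5a, which carries signals of growth-promoting cytokines, was at 125, 113 and 101 CPM in the controls and 275, 232 and 285 CPM after cGAMP (log2 fold change 1.22 with SE 0.11, edgeR adjusted p = 1.61e-07). Both groups were fully apart. The falls were in receptor chains, the kinases Jak1 and Jak2, and Stat5b (-0.36), the close relative of Stat5a. Ifnar1 and Ifngr1, chains of the type I and type II interferon receptors, fell by 0.53 and 0.54, Jak1 by 0.54 and Jak2 by 1.04. Ifnlr1, the specific chain of the type III interferon receptor, was at 8.12, 6.72 and 6.4 CPM in the controls and 2, 1.72 and 2.35 CPM after cGAMP, and no cGAMP library reached a control. Tyk2 (-0.07), Stat4 (0.06), Stat6 (-0.09), Jak3 (0.15) and Ifnar2 (-0.16) did not pass.

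Among 11 tested interferon regulatory factors and binding proteins, 3 were higher and 4 lower, against 22.4% higher and 25.4% lower among all tested genes. Irf7, the factor that amplifies interferon alpha transcription, was at 15.2, 35.2 and 89.3 CPM in the controls and 629, 760 and 609 CPM after cGAMP (log2 fold change 3.84 with SE 0.59, edgeR adjusted p = 0.000761). The groups did not overlap, and among the controls replicate 3 was the highest. Irf1 and Irf3 rose by 0.41 and 0.32, while Irf2, an antagonist of IRF1, fell from 173, 187 and 175 CPM to 93.6, 84.6 and 97.5 CPM. Leaving out control replicate 3 gave a log2 fold change of 4.72 for Irf7. Irf1 did not pass without cGAMP replicate 1 (edgeR adjusted p = 0.0572), and Irf3 did not pass without control replicate 3 (edgeR adjusted p = 0.0828). Irf4 (0.08) and Irf8 (0.16), which direct B cell differentiation, did not pass. Irf8 passed with DESeq2 (adjusted p = 0.0102) and with library totals alone (edgeR adjusted p = 0.027).

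Of 26 tested nucleic acid sensors and adaptors, 13 were higher and 6 lower. Receptors that detect RNA in the cytosol were among the rises. Ifih1, which encodes MDA5, was at 10.8, 12.3 and 19.6 CPM in the controls and 451, 460 and 462 CPM after cGAMP (log2 fold change 5.00 with SE 0.20, edgeR adjusted p = 9.47e-10). Dhx58, which encodes the related LGP2, was at 31.7, 41.1 and 60 CPM in the controls and 198, 206 and 186 CPM after cGAMP, and Ddx58, which encodes RIG-I, rose by 1.44. Zbp1, a sensor of left-handed nucleic acid, was at 40.2, 57.7 and 90.8 CPM in the controls and 404, 466 and 374 CPM after cGAMP. Mb21d1, the deposited symbol of cGAS, was at 1.89, 2.85 and 2.08 CPM in the controls and 7.06, 7.82 and 5.41 CPM after cGAMP. The endosomal RNA receptors Tlr3 and Tlr7 rose by 2.04 and 1.23, whereas the DNA receptor Tlr9 did not pass (0.05). Lower members lay on the adaptor side. Besides Tmem173, they were Mavs (-0.31), the adaptor of the RNA receptors, Ticam1 (-0.70), the adaptor of TLR3, Nlrc3 (-0.90), Tank (-0.31) and Ikbkg (-0.30). Tbk1 rose by 0.51. Mavs did not pass without control replicate 1 or cGAMP replicate 2 (edgeR adjusted p = 0.0525 to 0.0742), and Nlrc3 did not pass without control replicates 1 and 2 or cGAMP replicate 2 (edgeR adjusted p = 0.0768 to 0.0844).

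Most antiviral effectors rose. Of 44 tested effectors, 37 were higher and 3 lower, with a median log2 fold change of 1.60, and 28 had risen at least 2-fold. Ifit1, which binds foreign RNA caps, was at 3.81, 7.07 and 25.3 CPM in the controls and 349, 398 and 380 CPM after cGAMP (log2 fold change 4.96 with SE 0.66, edgeR adjusted p = 0.000313). Rsad2, the viperin gene, was at 3.28, 5.38 and 15.6 CPM in the controls and 184, 198 and 172 CPM after cGAMP. Oasl1, an inactive relative of the 2'-5' oligoadenylate synthetases, was at 22.2, 36.2 and 72.9 CPM in the controls and 946, 964 and 965 CPM after cGAMP, and the cGAMP libraries were nearly equal. Parp12, an ADP-ribosyltransferase, was at 0.178, 0.774 and 1.55 CPM in the controls and 18.2, 13.9 and 11.8 CPM after cGAMP. The members that went the other way included Trim5 (-0.84) and Ifitm2 (-0.62). Apobec3, Samhd1 and Apobec1 lay between 0.14 and 0.17 and did not pass, and neither did Ifitm1 (0.78). Without control replicate 3 the log2 fold changes were 6.10 for Ifit1, 5.41 for Rsad2 and 4.92 for Parp12, larger in each case than with all libraries.

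The GTPases that attack vacuoles of intracellular pathogens were called higher in 15 of 19 tested cases, with 1 lower. Iigp1 rose from 0.499, 0.211 and 0.389 CPM to 6.92, 5.82 and 3.49 CPM, Gbp10 by 3.17 and Tgtp1 by 2.73. With control replicate 3 left out the log2 fold change was 4.10 for Gbp10. Gbp2 (0.52), Gbp3 (-0.16) and Gbp2b (-0.56) did not pass, and Irgq, an atypical member, fell by 0.76. Gbp2 passed without control replicate 1 or cGAMP replicate 3 (edgeR adjusted p = 0.028 to 0.0374). It also passed with DESeq2 (adjusted p = 0.027) and with library totals alone (edgeR adjusted p = 0.0467). Members of the p200 and Schlafen families were called higher in 16 of 19 tested cases and lower in none. Slfn4 was at 0.178, 0.0352 and 0 CPM in the controls and 10.4, 2.27 and 0.463 CPM after cGAMP, and replicate 1, the library with the most neutrophil marker RNA, was far above the other cGAMP libraries. Slfn4 could not pass the filter through the wild type controls. Without cGAMP replicate 1 its log2 fold change was 4.19, without control replicate 1 7.63 and without both 5.96, in place of 5.86. Slfn4 did not pass with limma-voom (adjusted p = 0.0795) or when only the wild type libraries were fitted (edgeR adjusted p = 0.0536). The part of the neutrophil marker RNA in this spread was not tested. Slfn1 rose by 2.65 and Slfn5 by 1.90, while Slfn2 (-0.04) and Slfn9 (0.01) did not pass. Leaving out control replicate 3 gave a log2 fold change of 3.36 for Slfn1. Within both families, and among the guanylate-binding genes, members are close copies, and reads may have been divided among them. All 6 tested genes of ISG15 conjugation rose. Isg15, a ubiquitin-like modifier, was at 16.1, 24.3 and 76.5 CPM in the controls and 437, 580 and 436 CPM after cGAMP. The E1 enzyme gene Uba7 rose by 1.61, the ligase gene Herc6 by 2.86, and Usp18, which removes ISG15 and blocks the interferon receptor, by 3.26. Without control replicate 3 the log2 fold changes were 4.58 for Isg15 and 4.07 for Usp18. Summed over the list, levels were 137, 189 and 283 FPKM in the controls and 1100, 1380 and 1090 FPKM after cGAMP.

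Promoter sequence was examined for these genes because interferon-stimulated genes are known to be bound by STAT and IRF complexes at the interferon-stimulated response element. RefSeq windows on GRCm38.p6, from 250 bases before to 50 bases after the start, were matched for 9326 of 11319 tested protein-coding genes. Capitals mark each match to GAAANNGAAA on either strand in the 250 bases before the start of 4 genes that rose more than 16-fold.
Cxcl10 (chr5:92348890-92349139, minus strand): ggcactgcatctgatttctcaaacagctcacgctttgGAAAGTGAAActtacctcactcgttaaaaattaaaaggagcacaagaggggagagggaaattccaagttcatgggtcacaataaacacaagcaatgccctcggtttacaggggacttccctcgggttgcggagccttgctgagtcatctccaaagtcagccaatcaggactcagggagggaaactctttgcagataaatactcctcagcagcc
Ifi207 (chr1:173741810-173742059, minus strand): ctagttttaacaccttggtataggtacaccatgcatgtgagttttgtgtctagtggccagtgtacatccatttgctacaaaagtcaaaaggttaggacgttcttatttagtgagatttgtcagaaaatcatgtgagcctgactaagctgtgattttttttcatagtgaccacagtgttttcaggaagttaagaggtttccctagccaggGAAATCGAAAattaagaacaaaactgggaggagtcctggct
Ifit1 (chr19:34640639-34640888, plus strand): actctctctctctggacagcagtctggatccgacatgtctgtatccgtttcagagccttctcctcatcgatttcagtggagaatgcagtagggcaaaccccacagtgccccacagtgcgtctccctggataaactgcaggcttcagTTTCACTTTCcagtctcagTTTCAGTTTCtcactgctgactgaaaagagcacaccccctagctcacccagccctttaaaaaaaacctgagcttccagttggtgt
Rsad2 (chr12:26456453-26456702, minus strand): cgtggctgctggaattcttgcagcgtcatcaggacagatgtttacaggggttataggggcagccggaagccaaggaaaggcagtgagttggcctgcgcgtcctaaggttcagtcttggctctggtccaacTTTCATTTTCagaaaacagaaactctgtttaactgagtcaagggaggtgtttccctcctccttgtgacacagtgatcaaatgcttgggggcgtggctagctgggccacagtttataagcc
Ifit1 held a pair of matches, at 104 and 85 bases before its start, and Cxcl10, Ifi207 and Rsad2 held 1 each, at 213, 41 and 120 bases. The window of Ifih1 also held 1 match, and those of Oasl1, Parp12, Irf7 and Atf3 held none. Among the genes called and at least 8-fold higher, 18 of 73 windows (24.7%) held a match, against 3.24% of all tested windows and 3.44% of all 32851 windows. The share was 3.37% among genes called higher by under 2-fold, 2.83% among genes not called and 1.93% among genes called and at least 2-fold lower. Of the antiviral effectors with a window, 19 of 36 held a match, and so did 10 of 12 of the GTPases. For the class called and 2- to 8-fold higher no share was computed, because under 80% of its genes had a window. The gamma-activated site TTCNNNGAA, searched on both strands, was in 9.59% of the windows of the genes at least 8-fold higher and in 6.95% of all tested windows. A match is a description of the letters and does not show binding.

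**Figure D2:**
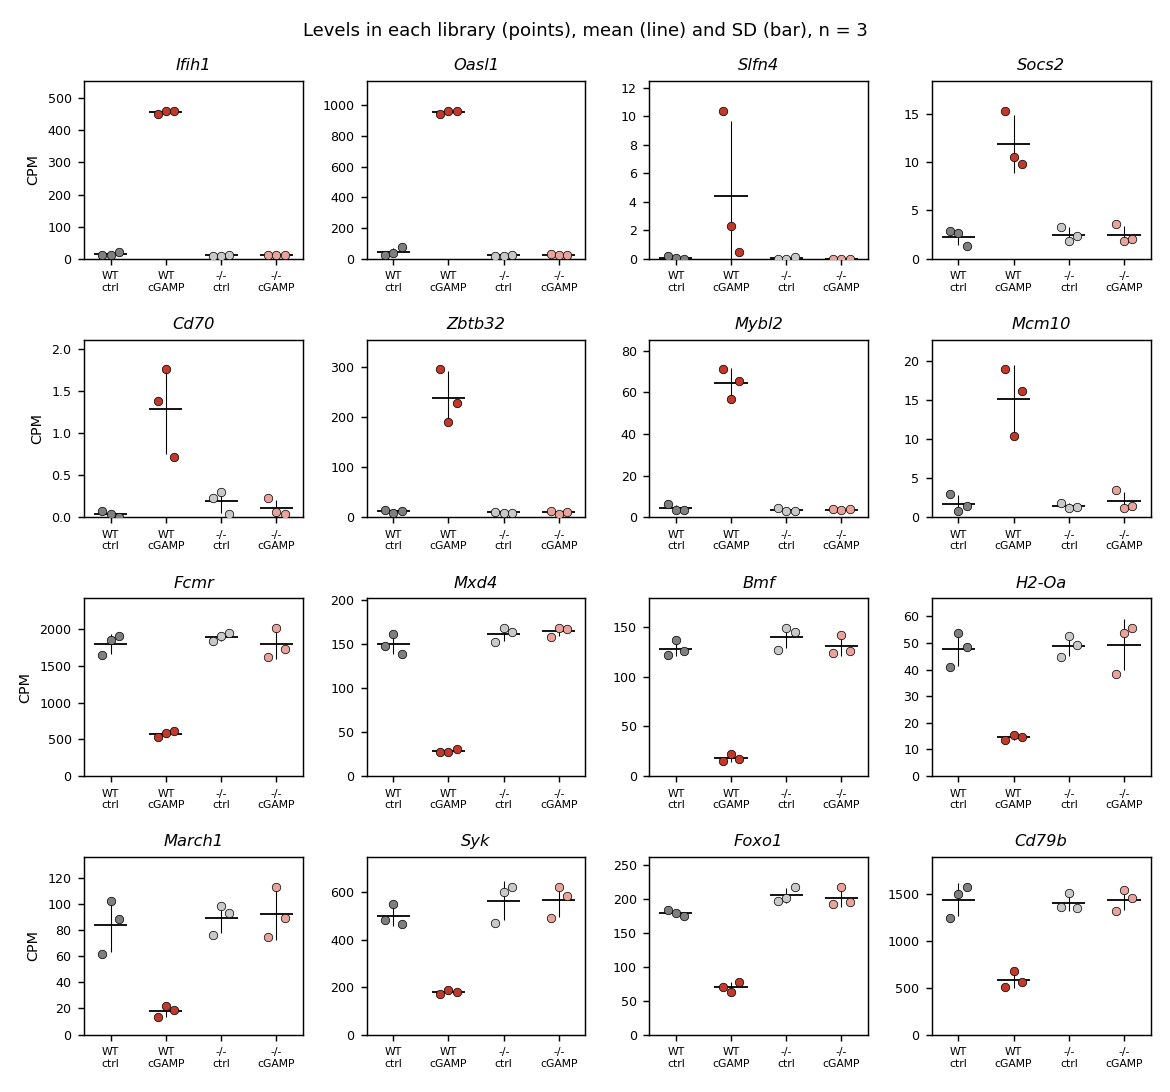
CPM in each of the 12 libraries for 16 genes named in the text, with the y axis starting at 0 in each panel. Points are libraries, lines means and bars SD (n = 3). WT is wild type and -/- is Tmem173-/-. In each panel the wild type cGAMP libraries lie apart from the wild type controls, and Slfn4 shows the spread among cGAMP libraries.

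Genes that restrain cytokine signalling rose alongside. Of 33 tested feedback inhibitors, 18 were higher and 7 lower. Socs2, an inhibitor of JAK-STAT signalling, was at 2.85, 2.6 and 1.27 CPM in the controls and 15.3, 10.5 and 9.83 CPM after cGAMP, and Cish, a relative, at 2.24, 2.99 and 2.9 CPM in the controls and 12, 10.5 and 7.83 CPM after cGAMP. Socs1 rose by 1.50 and Socs3 by 0.71. Among inhibitors of NF-kB signalling the rises varied. Tnip3, Peli1 and Nfkbiz rose by 1.53, 1.38 and 1.13. Tnip3 did not pass without control replicate 3 or cGAMP replicate 2 (edgeR adjusted p = 0.0709 to 0.116). Nfkbia, the gene of the inhibitor protein I-kappa-B alpha, rose by 0.22, and Tnfaip3, the A20 gene, by 0.72. Nfkbia did not pass without control replicates 1 and 2 or cGAMP replicates 2 and 3 (edgeR adjusted p = 0.0576 to 0.109), and Socs3 did not pass without control replicates 1 and 3 or cGAMP replicates 1 and 2 (edgeR adjusted p = 0.113 to 0.19). Lower members included the phosphatase Ptpn6 (-0.76), the SUMO ligase Pias1 (-0.58) and Tnip1 (-0.55).

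Secreted and surface signals of the TNF family changed at low levels of RNA. Of 12 tested ligands, 6 were higher and 1 lower. Cd70, the ligand of CD27, was at 0.0712, 0.0352 and 0 CPM in the controls and 1.38, 1.76 and 0.712 CPM after cGAMP, and Tnfsf15 at 0.107, 0 and 0 CPM in the controls and 1.35, 0.93 and 1.07 CPM after cGAMP. With control replicate 1 left out the log2 fold change was 5.87 for Cd70, and the other controls had no Tnfsf15 count. Neither gene could pass the filter through the wild type controls. Lta, which encodes lymphotoxin alpha, was at 1.1, 1.16 and 1.63 CPM in the controls and 11.9, 16.1 and 17.6 CPM after cGAMP (log2 fold change 3.55 with SE 0.28, edgeR adjusted p = 7.1e-08), and its membrane partner Ltb went the other way (-0.83). Tnf rose by 2.54 and Tnfsf4, the OX40 ligand, by 2.28. On the receptor side, 7 of 22 were higher and 5 lower, not far from the 22.4% higher and 25.4% lower among all tested genes. Tnfrsf13b, which encodes TACI, a receptor of BAFF and APRIL, was at 367, 350 and 381 CPM in the controls and 801, 695 and 809 CPM after cGAMP, and Cd40 rose by 0.84. Tnfrsf1a, the first TNF receptor, rose by 2.27, and Tnfrsf1b, the second, fell by 0.63. Tnfrsf18 and Tnfrsf9 fell by 1.51 and 1.34. Tnfrsf1a did not pass without cGAMP replicate 1 (edgeR adjusted p = 0.0732), and Tnfrsf9 did not pass without control replicates 1 and 3 or cGAMP replicates 2 and 3 (edgeR adjusted p = 0.0698 to 0.0777). Without both replicate 1 libraries 3 receptors in place of 5 were called lower.

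Chemokine genes were called higher in 6 of 11 tested cases and lower in none. Cxcl10 rose the most of them, by 7.19 on the log2 scale. Ccl5 was at 9.48, 5.35 and 4.59 CPM in the controls and 145, 105 and 106 CPM after cGAMP, and Ccl3, Ccl4, Ccl22 and Cx3cl1 rose by 1.18 to 1.44. Cxcl9 and Cxcl11, which share their receptor with Cxcl10, were below the filter, with 20 and 16 counts over the cGAMP libraries against 1 and 0 over the controls. Cx3cl1 did not pass without control replicates 1 and 3 or cGAMP replicate 1 (edgeR adjusted p = 0.0524 to 0.0712). Among SLAM, checkpoint and costimulatory genes, 11 of 28 were higher and 10 lower. Cd80 and Cd86, the ligands of CD28, rose by 2.92 and 2.55. Lag3 was at 10.8, 9.64 and 7.95 CPM in the controls and 110, 69.5 and 83.5 CPM after cGAMP, and Tigit at 0.285, 0.106 and 0.212 CPM in the controls and 4.73, 2.38 and 3.6 CPM after cGAMP. Tigit could not pass the filter through the wild type controls. SLAM family genes mostly went down, with Cd84 at -1.37, Slamf9 at -1.20 and Slamf1 at -1.15, whereas Slamf7 rose by 0.40 and Slamf6 (0.04) and Ly9 (-0.17) did not pass. Ly9 passed without cGAMP replicate 3 (edgeR adjusted p = 0.0321). Cd276 had CPM values of 0.855, 1.55 and 0.601 in the controls and 0, 0 and 0.249 after cGAMP. Without cGAMP replicate 3 no Cd276 count remained after cGAMP, and this gene could not pass the filter through the wild type cGAMP libraries.

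The 2 antigen presentation pathways moved in opposite directions. Of 27 tested class I genes, 19 were higher and none lower. Nlrc5, which drives class I transcription, was at 122, 114 and 88 CPM in the controls and 327, 306 and 292 CPM after cGAMP, and H2-K1, a classical heavy chain, at 2050, 1850 and 2260 CPM in the controls and 3420, 3120 and 3160 CPM after cGAMP. H2-Q4, H2-T24 and H2-Q6 rose by 1.46 to 1.58, and H2-D1 by 0.38. B2m (0.22), which encodes the shared light chain, and the immunoproteasome gene Psmb8 (-0.28) did not pass. H2-D1 did not pass without control replicate 2 or cGAMP replicate 3 (edgeR adjusted p = 0.0576 to 0.0669), and Psmb8 passed without control replicates 1 and 2 (edgeR adjusted p = 0.0177 to 0.0431). Class I heavy chains are close in sequence, so reads may have been divided among them.

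Of 29 tested class II and lysosomal genes, none were higher and 23 lower, with a median log2 fold change of -0.95. Their summed level was 10400, 12300 and 13200 FPKM in the controls and 5350, 5560 and 5820 FPKM after cGAMP. March1, whose product ubiquitinates surface class II molecules, was at 61.6, 102 and 88.4 CPM in the controls and 13.1, 22.2 and 18.5 CPM after cGAMP. H2-Oa and H2-DMa, chains of the proteins that edit peptide loading, were at 41, 53.7 and 48.6 CPM in the controls and 13.5, 15.5 and 14.5 CPM after cGAMP and at 114, 153 and 158 CPM in the controls and 38.7, 49.6 and 42.1 CPM after cGAMP. Ciita, the transactivator of class II genes, fell by 0.81, and the invariant chain gene Cd74 by 1.16. Lysosomal proteases fell less, with Ctss, which cleaves the invariant chain, at -0.47 and Ctsb at -0.81. The members that did not pass were Ifi30, Rfx5, Ctsz, Lamp1, Lamp2 and Rfxap, which lay between -0.24 and 0.17. Ifi30 passed without cGAMP replicate 2 (edgeR adjusted p = 0.0189), and Rfxap passed without cGAMP replicate 3 (edgeR adjusted p = 0.0289). Rfx5 and Rfxap are subunits of the factor that occupies the X box of class II promoters. These promoters also carry a Y box, the site of NF-Y. Capitals mark the letters CTGATTGG in the 250 bases before the start of 4 class II genes that fell.
H2-Aa (chr17:34287824-34288073, minus strand): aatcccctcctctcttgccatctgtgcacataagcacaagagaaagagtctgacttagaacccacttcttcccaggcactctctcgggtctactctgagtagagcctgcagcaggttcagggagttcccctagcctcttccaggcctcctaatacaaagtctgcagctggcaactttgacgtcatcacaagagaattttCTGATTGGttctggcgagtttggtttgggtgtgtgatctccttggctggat
H2-Eb1 (chr17:34305617-34305866, plus strand): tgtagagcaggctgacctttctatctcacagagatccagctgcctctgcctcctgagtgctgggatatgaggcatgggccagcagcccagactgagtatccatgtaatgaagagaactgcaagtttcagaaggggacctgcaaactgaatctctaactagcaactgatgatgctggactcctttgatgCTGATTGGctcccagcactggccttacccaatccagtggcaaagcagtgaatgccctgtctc
H2-Eb2 (chr17:34325425-34325674, plus strand): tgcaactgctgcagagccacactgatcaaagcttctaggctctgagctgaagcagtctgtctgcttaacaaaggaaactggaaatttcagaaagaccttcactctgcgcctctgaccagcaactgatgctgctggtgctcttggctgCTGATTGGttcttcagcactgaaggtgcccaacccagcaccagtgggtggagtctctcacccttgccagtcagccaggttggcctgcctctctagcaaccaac
H2-Oa (chr17:34092129-34092378, plus strand): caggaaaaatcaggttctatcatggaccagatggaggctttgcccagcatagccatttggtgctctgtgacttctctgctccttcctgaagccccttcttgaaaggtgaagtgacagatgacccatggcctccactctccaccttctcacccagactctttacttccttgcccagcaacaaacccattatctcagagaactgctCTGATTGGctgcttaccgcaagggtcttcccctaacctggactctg
The match lay 51 bases before the start of H2-Aa, 62 before H2-Eb1, 103 before H2-Eb2 and 46 before H2-Oa. These genes fell by 1.53, 1.36, 1.63 and 1.72 on the log2 scale. Counting both strands, the letters were in 5 of 21 windows of the class II list and in 8 of 22 windows of the class I list, whose called members rose. They were in 5.46% of the windows of all genes called and at least 2-fold lower, in 9.59% of those of genes called and at least 8-fold higher and in 6.47% of all tested windows.

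Genes of the antigen receptor and its first signalling steps were mostly lower. Of 30 tested genes 24 were lower and 3 higher. Cr2, the complement receptor CD21, was at 87.4, 105 and 88.8 CPM in the controls and 16.9, 18.3 and 22.2 CPM after cGAMP. Cd79b, a signalling chain of the receptor, was at 1250, 1500 and 1580 CPM in the controls and 505, 676 and 561 CPM after cGAMP, and the kinase gene Syk at 483, 551 and 468 CPM in the controls and 172, 190 and 181 CPM after cGAMP (log2 fold change -1.47 with SE 0.12, edgeR adjusted p = 9.18e-08). Bank1 and Vav3, an adaptor and an exchange factor, fell by 1.55 and 2.05, and Lyn, Btk and Blk fell by 0.87, 0.66 and 1.13. Malt1, a protease gene of the pathway to NF-kB, rose by 0.64, while its partner Bcl10 fell by 0.41. Inhibitory receptors and phosphatases fell in 15 of 24 tested cases and rose in 3. Fcrla was at 499, 627 and 671 CPM in the controls and 172, 244 and 218 CPM after cGAMP, Cd22 fell by 0.50 and Inpp5d, the SHIP1 gene, by 0.76. Lilrb4a and the adaptor Dok1 rose by 1.43 and 1.41. Cd22 did not pass without control replicate 2 or cGAMP replicates 1 and 3 (edgeR adjusted p = 0.051 to 0.0833).

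Lineage transcription factors were mostly lower as well. Of 45 tested factors 28 were lower and 5 higher, with a median log2 fold change of -0.44. Mef2c was at 526, 609 and 525 CPM in the controls and 173, 195 and 193 CPM after cGAMP. Ikzf1, the Ikaros gene, was at 858, 743 and 780 CPM in the controls and 321, 277 and 301 CPM after cGAMP, and Foxo1 at 184, 180 and 175 CPM in the controls and 69.7, 62.8 and 78 CPM after cGAMP (log2 fold change -1.36 with SE 0.09, edgeR adjusted p = 1.18e-08). Bcl6, the master factor of germinal centre B cells, fell by 1.23, and Prdm1 and Xbp1, factors of plasma cells, fell by 0.66 and 0.37. Zbtb32, a repressor related to PLZF, was at 15.1, 8.16 and 12.7 CPM in the controls and 295, 189 and 227 CPM after cGAMP. The helix-loop-helix inhibitors Id2 and Id3 went opposite ways. Id2 was at 7.91, 7.95 and 8.23 CPM in the controls and 25.9, 23.5 and 23.9 CPM after cGAMP, and Id3 at 139, 159 and 167 CPM in the controls and 49.5, 57.7 and 53.8 CPM after cGAMP. Pax5, which holds B cell identity, rose by 0.33, and Ebf1, its partner, fell by 0.28. Pax5 did not pass without control replicates 1 and 3 or cGAMP replicates 1, 2 and 3 (edgeR adjusted p = 0.0573 to 0.0985), and Ebf1 did not pass without control replicate 2 or cGAMP replicate 2 (edgeR adjusted p = 0.0989 to 0.106). Over all 826 tested genes that the deposited table assigns to a transcription factor family, 146 were higher and 256 lower. The largest family, the C2H2 zinc fingers, had 41 higher and 134 lower of 408. In the ETS family 8 of 17 were lower and 1 higher, and in the E2F family 8 of 10 were higher and 1 lower.

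Factors of immediate early responses were split, with 13 of 38 NF-kB, AP-1, EGR and ATF genes higher and 13 lower. Atf3, a stress-induced repressor, was at 2.24, 1.83 and 2.37 CPM in the controls and 43.6, 39.8 and 43.4 CPM after cGAMP (log2 fold change 4.30 with SE 0.18, edgeR adjusted p = 5.58e-11), and Jun and Fos rose by 2.05 and 1.18. Egr1, Egr2 and Egr3, genes induced by antigen receptor signals, fell, with log2 fold changes of -0.83, -1.84 and -0.93. Nfkb1 and Nfkb2 rose by 0.32 and 0.31, Rela fell by 0.19, and Rel (-0.03) and Relb (0.04) did not pass. Nfkb1 did not pass without control replicate 2 or cGAMP replicates 1 and 3 (edgeR adjusted p = 0.0591 to 0.0723), and Rela did not pass without control replicates 1 and 2 or cGAMP replicates 2 and 3 (edgeR adjusted p = 0.0711 to 0.131). Myc, which drives growth, was at 192, 154 and 164 CPM in the controls and 393, 323 and 360 CPM after cGAMP. Mxd4, whose protein competes with MYC for MAX, was at 148, 161 and 139 CPM in the controls and 27.5, 26.8 and 30.1 CPM after cGAMP (log2 fold change -2.41 with SE 0.09, edgeR adjusted p = 2.85e-11). Mxi1 and Mnt, of the same function, fell by 0.33 and 0.23, and Mxd1 rose by 0.73. Mxi1 did not pass without control replicate 3 or cGAMP replicate 3 (edgeR adjusted p = 0.0919 to 0.113), and Mnt did not pass without control replicate 1 or cGAMP replicates 1 and 2 (edgeR adjusted p = 0.0559 to 0.103).

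Genes of entry into S phase rose together. Of 45 tested DNA replication genes, 35 were higher and 1, Rpa1, lower (-0.29). Mcm10 was at 2.92, 0.809 and 1.45 CPM in the controls and 18.9, 10.4 and 16.1 CPM after cGAMP, and Cdc6, a loader of the replicative helicase, at 2.6, 0.845 and 0.883 CPM in the controls and 14, 6.92 and 8.8 CPM after cGAMP. Leaving out control replicate 1 gave log2 fold changes of 3.73 for Mcm10 and 3.51 for Cdc6. Orc1 rose by 2.47 and Rrm2, a subunit of ribonucleotide reductase, by 1.87. The abundant helicase subunits changed less, with Mcm2 to Mcm7 between 0.41 and 1.04. Mybl2, a cell cycle factor, was at 6.27, 3.31 and 3.39 CPM in the controls and 71.1, 57 and 65.4 CPM after cGAMP, and the summed replication list was 1640, 1440 and 1640 FPKM in the controls and 2410, 2090 and 2270 FPKM after cGAMP. Among mitotic genes 26 of 45 were higher and 2 lower. Bub1, Espl1 and Cdk1 rose by 2.29, 1.91 and 1.88. Mki67 was at 14, 3.94 and 5.44 CPM in the controls and 23.4, 12.3 and 19.5 CPM after cGAMP, with groups that overlapped, and did not pass with edgeR on all libraries. Neither did Plk1 (0.86), Ccnb1 (0.71) or Aurkb (0.16), and Cenpa and Cdc25b fell by 0.86 and 0.96. Mki67 passed without control replicate 1 (edgeR adjusted p = 0.00593), Plk1 passed without control replicate 1 or cGAMP replicate 2 (edgeR adjusted p = 0.0193 to 0.0491), and Ccnb1 passed without control replicate 1 (edgeR adjusted p = 0.0362). DESeq2 and limma-voom called Mki67 (adjusted p = 0.0488 and 0.0357) and Ccnb1 (adjusted p = 0.0317 and 0.0314). With edgeR Ccnb1 also passed with library totals alone (adjusted p = 0.0337) and with only the wild type libraries (adjusted p = 0.0223), and Mki67 without both replicate 1 libraries (adjusted p = 0.014). All 3 passed without the filter beyond 1 count. That fit also called Rrp1b and Rrp9 (edgeR adjusted p = 5.27e-57 and 6.22e-48), at which control replicate 2 lay far below the others. Passing in it is therefore no support.

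Of 31 tested genes of the G1 machinery, 17 were higher and 7 lower. Ccnd2, the D-type cyclin with the largest change, was at 181, 113 and 150 CPM in the controls and 924, 799 and 795 CPM after cGAMP (log2 fold change 2.50 with SE 0.15, edgeR adjusted p = 5.7e-09), while Ccnd3 (-0.16) did not pass. Ccnd3 passed without cGAMP replicate 1 (edgeR adjusted p = 0.0355). E2f1 and E2f8 rose by 1.48 and 2.71. The CDK inhibitors were divided. Cdkn1a, which encodes p21, and Cdkn2b rose by 1.45 and 1.66, whereas Cdkn1b, which encodes p27, Cdkn2c and Cdkn2d fell by 0.85, 1.07 and 1.00. Ccng2 and the pocket protein genes Rb1 and Rbl2 fell by 1.40, 0.85 and 1.00. The E2F site TTTCCCGC, searched on both strands, was in 6 of 37 windows of the replication list and in 2.24% of all tested windows.

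Ribosome production showed opposite signs for its factors and its products. Of 49 tested genes of ribosome biogenesis and RNA polymerase I, 39 were higher and none lower, with a median log2 fold change of 0.72. Without control replicate 2, 41 of them were higher, none lower, and the median was 0.61. Gnl3, Nop56, Nop2 and Nolc1, all nucleolar proteins, rose by 1.37, 1.15, 1.13 and 1.08. Npm1 was at 1640, 1310 and 1930 CPM in the controls and 2320, 2300 and 2400 CPM after cGAMP. Of 84 tested cytosolic ribosomal protein genes, 64 were lower and 4 higher, with a median of -0.52. Rplp0 was at 4400, 4670 and 6120 CPM in the controls and 3010, 3510 and 3230 CPM after cGAMP and Rps27 fell by 0.90. Rps10, Rpl24, Rps27l and Rpl7l1 rose by 1.20, 0.72, 0.48 and 0.29. Rpl24 did not pass without cGAMP replicate 2 (edgeR adjusted p = 0.0591), Rps27l did not pass without control replicates 1 and 2 or cGAMP replicate 2 (edgeR adjusted p = 0.0661 to 0.099), and Rpl7l1 did not pass without control replicates 1 and 2 or cGAMP replicates 1, 2 and 3 (edgeR adjusted p = 0.0569 to 0.159). Without control replicate 3, in which the summed list was the highest of the controls, 37 in place of 64 were called lower and the median was -0.38. Summed levels were 158000, 169000 and 217000 FPKM in the controls and 115000, 139000 and 120000 FPKM after cGAMP. Eef1a1, the translation elongation factor and the named gene with the largest fall in FPKM, was at 19700, 21100 and 27900 CPM in the controls and 12300, 14400 and 13800 CPM after cGAMP (log2 fold change -0.76 with SE 0.16, edgeR adjusted p = 0.000863). Many ribosomal protein genes have processed pseudogenes in the same table, and reads may have been divided between them.

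Several genes with ribosomal RNA names were not interpretable with all controls. All 8 tested genes whose symbol starts with Rrp, named after ribosomal RNA processing, were at 4-fold or more below both other controls in control replicate 2. Rrp12 was at 113, 2.5 and 102 CPM in the controls and 185, 151 and 175 CPM after cGAMP. Rrp1b and Rrp9 were at 76.7, 6.09 and 58.6 CPM in the controls and 168, 135 and 161 CPM after cGAMP and at 86.7, 10.8 and 96.6 CPM in the controls and 194, 186 and 190 CPM after cGAMP. None of the 8 passed with all libraries. Without control replicate 2, the log2 fold changes of Rrp12, Rrp1b and Rrp9 were 0.65, 1.19 and 1.05, with edgeR adjusted p-values of 0.000475, 2.98e-06 and 1.16e-06.

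Mitochondrial genes were lower where the mitochondrial genome encodes them. Of its 13 messenger genes 12 were lower, and the other, mt-Nd3, did not pass (0.24). mt-Nd3 passed without control replicate 2 (edgeR adjusted p = 0.046). Their summed level was 14100, 13300 and 12900 FPKM in the controls and 8790, 8310 and 9320 FPKM after cGAMP, and mt-Co1, a subunit of cytochrome oxidase, was at 7540, 7670 and 6980 CPM in the controls and 4810, 4750 and 5430 CPM after cGAMP. Nuclear genes of the respiratory chain were lower in 22 of 80 tested cases and higher in 1, against 25.4% lower and 22.4% higher among all tested genes. Without control replicate 3, 10 of them were lower. Mitochondrial ribosomal protein genes were higher in 18 of 77 cases and lower in 4, against 22.4% and 25.4% of all tested genes. The count of higher genes was 32 without control replicate 3, 33 with library totals alone and 9 without both replicate 1 libraries.

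Genes of amino acid supply rose more often than all genes. Among transporters and integrated stress response genes, 15 of 30 were higher and 2 lower, and among aminoacyl-tRNA synthetases 14 of 21 were higher and 1, Qars, lower (-0.23). Qars did not pass without control replicate 1 (edgeR adjusted p = 0.0731). Slc3a2 and Slc7a5, the chains of a large neutral amino acid transporter, rose by 1.15 and 0.99, and Mthfd2, a mitochondrial folate enzyme, by 1.06. Atf4 rose by 0.74 and Ddit3 by 0.36, while Asns (0.46) and Trib3 (0.24), targets of ATF4, did not pass. Ddit3 did not pass without control replicates 1, 2 and 3 or cGAMP replicates 1, 2 and 3 (edgeR adjusted p = 0.051 to 0.134). Ddit4, an inhibitor of mTORC1, fell by 1.24. Endoplasmic reticulum chaperones had 3 of 22 higher and 6 lower, against 22.4% higher and 25.4% lower among all tested genes. Cytosolic heat shock genes had 13 of 23 higher and 1 lower. Hspa8, the named gene with the largest rise in FPKM, was at 2900, 2320 and 3470 CPM in the controls and 4300, 4190 and 4360 CPM after cGAMP (log2 fold change 0.56 with SE 0.14, edgeR adjusted p = 0.00408). Hspa1a and Hspa1b, which are near copies, rose by 1.79 and 1.65. Hspa1a did not pass without control replicate 1 or cGAMP replicate 3 (edgeR adjusted p = 0.0966 to 0.1), and without control replicate 2 Hspa1b was at 2.29. Hsp90aa1 was at 869, 13.4 and 969 CPM in the controls and 1840, 1590 and 1940 CPM after cGAMP and did not pass, with control replicate 2 far below every other library. Without that library its log2 fold change was 0.95 (edgeR adjusted p = 4.88e-05).

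Of 22 tested glycolysis genes 6 were higher and 7 lower, near the shares of all tested genes. Hk2 rose by 1.29 and Pfkfb3 by 0.88. Aldoc was at 21.9, 28.9 and 30.8 CPM in the controls and 4.19, 5.96 and 4.09 CPM after cGAMP, and the glucose transporter gene Slc2a3 fell by 1.17. Acod1, whose enzyme makes itaconate, was at 0.356, 0.0352 and 0.0353 CPM in the controls and 10.2, 4.24 and 4.49 CPM after cGAMP. Without control replicate 1 the log2 fold change was 7.31 for Acod1. This gene passed the filter only through the wild type cGAMP libraries, so its rise is no separate evidence. Srxn1, Gclc and Txnrd1, known targets of NRF2, rose by 2.05, 0.66 and 0.62, whereas Hmox1 (0.20) and Nqo1 (-0.23), further targets, did not pass, and Cat fell by 1.23. The list had 11 of 21 higher with all libraries and 7 higher without both replicate 1 libraries. Among genes of the lysosomal proton pump and autophagy, 17 of 35 were lower and 4 higher. Tfeb, a factor that drives lysosomal genes, was at 73.4, 73.4 and 68.8 CPM in the controls and 35.2, 32.2 and 37 CPM after cGAMP, and Map1lc3a, Gabarap and Map1lc3b fell by 1.75, 0.88 and 0.60. Atg16l1 and the receptor gene Optn rose by 0.73 and 0.70.

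Genes of the BCL2 family changed on both sides of cell death control. Of 31 tested genes 11 were higher and 12 lower. Pmaip1 and Bbc3, which encode the death-promoting proteins NOXA and PUMA, were at 27.4, 25.5 and 25.3 CPM in the controls and 171, 201 and 192 CPM after cGAMP and at 23.9, 18.7 and 25.1 CPM in the controls and 110, 114 and 113 CPM after cGAMP. Bmf, of the same class, was at 122, 137 and 126 CPM in the controls and 14.7, 22.3 and 17.5 CPM after cGAMP (log2 fold change -2.82 with SE 0.13, edgeR adjusted p = 1.97e-10). The survival genes Bcl2 and Mcl1 fell by 1.28 and 0.51, whereas Bcl2l1 and Cflar rose by 0.71 and 1.02. Mlkl, the executor of necroptosis, was at 2.81, 2.46 and 3.6 CPM in the controls and 34.8, 23.9 and 30.1 CPM after cGAMP, and Ripk3, its kinase, fell by 0.81.

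Receptors and integrins of trafficking were lower in 19 of 34 tested cases and higher in 6. Ccr1 was at 10.7, 11.7 and 14 CPM in the controls and 0.801, 0.689 and 0.926 CPM after cGAMP. S1pr1, the receptor for exit from lymphoid tissue, and Gpr183, which guides B cells to follicle borders, fell by 1.14 and 1.21. Cxcr4 fell by 0.91 and Cxcr5 did not pass (-0.18), while Ccr7, which guides cells to T cell zones, rose by 0.55. Rgs2 was at 98.5, 109 and 109 CPM in the controls and 20.5, 24.5 and 21.8 CPM after cGAMP, and Rgs1 went the other way (0.98). Itgb7 and Itga6 fell by 2.07 and 1.27.

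**Figure D3:**
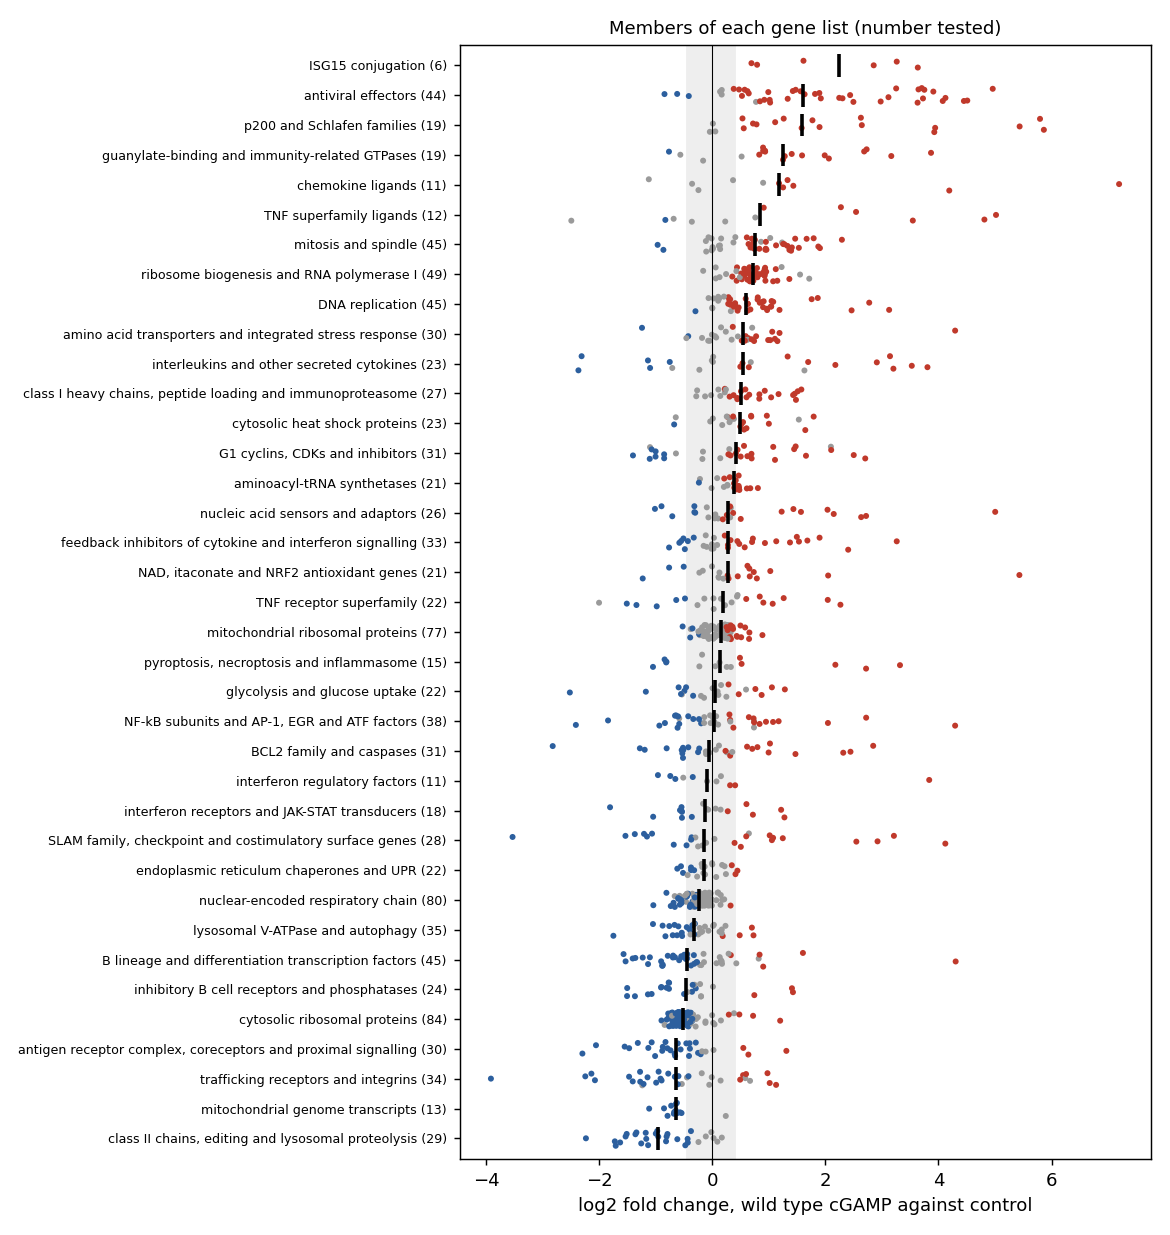
Log2 fold change (x axis) of each tested member of each gene list (rows, number tested in brackets), ordered by median (black bars). Red points were called higher, blue points lower and grey points not called. The grey band holds the middle 50% of all tested genes, from -0.45 to 0.41, and the line their median. Among the lists at the top are ISG15 conjugation, antiviral effectors, the p200 and Schlafen families and the GTPases, and class II with lysosomal genes lies at the bottom, with a median of -0.95.

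By fold change, the 25 largest rises and falls with at least 5 CPM and groups fully apart included several genes outside these lists. Predicted genes were left out of this ranking. Aire, Tex15 and Pak6 rose by 7.18, 5.98 and 5.94. Cxcl10 of the chemokine list rose by 7.19, and Ifi204, Ifi207, Ifi211, Mx1 and Oasl2 of the interferon lists by 3.91 to 5.80. Aire, Pak6 and Ifi204 passed the filter only through the wild type cGAMP libraries, so their rises are no separate evidence. Plagl1, a zinc finger gene, was at 0.321, 0.176 and 0.636 CPM in the controls and 11.9, 8.4 and 10.9 CPM after cGAMP, and Plekha6 at 0.392, 0.704 and 0.389 CPM in the controls and 10, 12.2 and 12 CPM after cGAMP. With control replicate 3 left out the log2 fold changes were 5.36 for Plagl1, 8.77 for Cxcl10, 6.61 for Ifi204, 6.29 for Ifi207 and 4.64 for Oasl2, and without control replicate 2 it was 9.64 for Aire, against a single count over the other controls. Among the falls, Rnf150 was at 14.2, 14.5 and 10.8 CPM in the controls and 0.328, 0.482 and 0.499 CPM after cGAMP and Crisp3, a secreted cysteine-rich protein, at 67.4, 144 and 132 CPM in the controls and 1.71, 6.68 and 5.13 CPM after cGAMP. Pglyrp1, a peptidoglycan-binding protein, was at 16.7, 18.3 and 20.3 CPM in the controls and 0.946, 2.48 and 2.6 CPM after cGAMP. Nfam1, which signals through an ITAM motif, fell by 3.10, Sirpa, which binds CD47, fell by 2.52 and Adgre1, the F4/80 gene, by 2.80. Adgre1, a macrophage marker, was at 23.1, 38 and 31.4 CPM in the controls and 4.26, 5.27 and 3.7 CPM after cGAMP, and every control library held more than every cGAMP library. Of the 10 monocyte and macrophage markers 5 were tested, of which Adgre1 was the 1 called lower and none were called higher. The other 4, Csf1r (-0.64), Cd68 (0.06), Lyz2 (0.84) and Cd14 (1.88), did not pass. The part of such cells in the falls of Adgre1, Sirpa, Pirb and Ccr1 was not tested. The lipid transporter genes Abcb4 and Abcg1 were at -2.47 and -2.45, and the actin regulators Gsn and Arhgap18 at -2.36 and -2.39 on the log2 scale. Sema5a, Anxa1, Wnt1, Hepacam2, Nid1, Spns3, Trim36, St6galnac3, Fmo5, Tmem51 and Spp1 fell, with log2 fold changes from -3.03 to -2.36. For 2 genes all libraries of a group were at 0 counts with 80 or more in the other. Inhbb, a subunit of activin, had 0 counts in the controls and 80 after cGAMP, at least 26.7-fold higher, taking 3 counts over the group as the floor. Pgk2 had 84 counts in the controls and 0 after cGAMP, at least 27.9-fold lower. Neither Inhbb nor Pgk2 could pass the filter through the group at 0 counts.

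Predicted genes were left out of the rankings by level, among them Gm26917, with means of 91.8 FPKM in the controls and 618 FPKM after cGAMP. By level, the other abundant genes that rose most in FPKM were Hspa8, H2-K1, Ifi27l2a, Shisa5, Oasl1, Plac8, Npm1, Eif4a1, Isg15, Bst2, Tnfrsf13b and Irf7. Plac8 was at 213, 312 and 377 CPM in the controls and 674, 1100 and 737 CPM after cGAMP, and Bst2, which encodes the virus-tethering protein tetherin, at 58.9, 64.3 and 141 CPM in the controls and 433, 462 and 409 CPM after cGAMP. Ifi27l2a was at 243, 334 and 468 CPM in the controls and 597, 1020 and 538 CPM after cGAMP (log2 fold change 1.05 with SE 0.26, edgeR adjusted p = 0.00602), and its adjusted p was 0.0555 when only the wild type libraries were fitted. The abundant genes that fell most were Eef1a1, Cd74, Tmsb4x, Rplp0, Rps18, Tpt1, Rps14, Rps9, Rpl41, Fcmr, Rpsa and mt-Co1. Fcmr, the Fc receptor for IgM, was at 1650, 1850 and 1910 CPM in the controls and 530, 593 and 609 CPM after cGAMP (log2 fold change -1.64 with SE 0.11, edgeR adjusted p = 1.35e-08). Tmsb4x, an actin-binding peptide, was at 2580, 3170 and 3510 CPM in the controls and 1090, 1500 and 1280 CPM after cGAMP. Rps14 and Rps18 no longer passed without control replicate 3 (edgeR adjusted p = 0.0635 and 0.0609) or without cGAMP replicate 1 (0.0567 and 0.0525), nor Rpl41 without control replicate 3 (0.0567) or without both replicate 1 libraries (0.0531).

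Some of the changed genes lay side by side. There were 20 runs of 4 or more neighbouring tested genes all called and at least 2-fold changed in 1 direction. The Ifit run on chromosome 19 (GRCm38, 34550694 to 34650009) held 6 genes, Ifit2, Ifit3, Ifit1bl1, Ifit3b, Ifit1bl2 and Ifit1, that rose by 1.63 to 4.96. Leaving out control replicate 3 gave log2 fold changes of 4.49 for Ifit2, 4.45 for Ifit3, 2.90 for Ifit1bl1 and 4.84 for Ifit3b. Ifit3 and Ifit3b did not pass when only the wild type libraries were fitted (edgeR adjusted p = 0.0621 and 0.056), nor Ifit1bl2 without both replicate 1 libraries (edgeR adjusted p = 0.0813). On chromosome 14 (59244441 to 59440884), Gm6904, Phf11a, Phf11b, Phf11d, Phf11c and Setdb2 rose by 1.10 to 3.41. On chromosome 13 the protease inhibitor genes Serpinb6b, Serpinb9 and Serpinb9b rose with Gm47662, while their neighbour Serpinb1a fell by 1.51. Runs of falls were fewer. On chromosome 7 (3711409 to 3915503), Pirb, Pira2, Lilra6 and 3 predicted genes, members of the paired immunoglobulin-like receptor family, fell by 1.14 to 2.72. On chromosome 11 (54979108 to 55151708), Anxa6, Ccdc69, Gm2a, Slc36a3 and Slc36a3os fell by 1.23 to 4.15. Without cGAMP replicate 1 the log2 fold change was -6.85 for Slc36a3, and without control replicate 1 it was 4.43 for Gm47662. Most runs hold copies of 1 gene family or overlapping genes, so reads may be shared within them and their members are not independent.

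**Figure D4:**
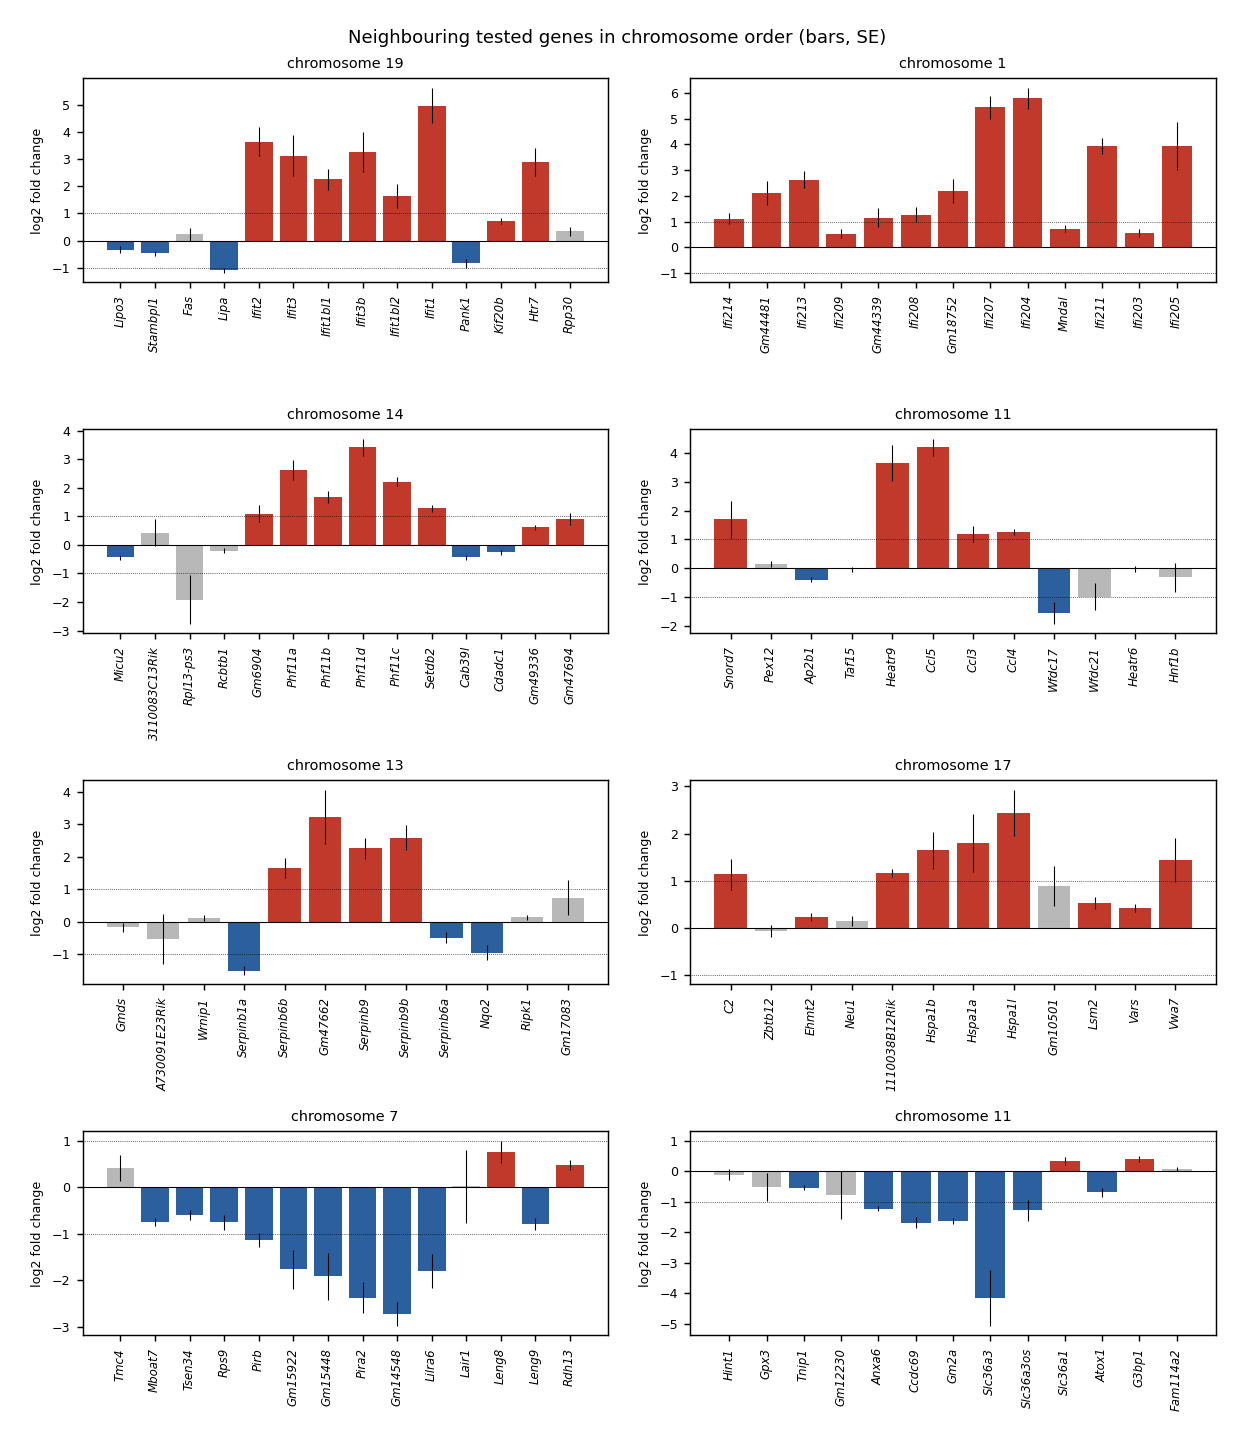
Log2 fold change (y axis, bars with SE) of tested genes in chromosome order for runs of called neighbours with 4 tested neighbours on each side. Red bars were called higher, blue lower and grey not called, and dotted lines mark 2-fold. The 6 Ifit genes rise by 1.63 to 4.96, and Lipa beside them falls by 1.10.

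Outside protein-coding genes the classes of the deposited table differed in direction. Of 11621 tested protein-coding genes 52.7% were called. Of 78 tested small nucleolar RNA genes 39 were higher and 1 lower, and of 47 microRNA genes 10 were higher and 1 lower. Among all tested genes 22.4% were higher and 25.4% lower, so the share of microRNA genes called higher was near that of all genes. Libraries were made from polyadenylated RNA. Most small nucleolar RNA and microRNA genes lie inside host genes, and reads of the host cannot be told apart from theirs. Of 198 tested immunoglobulin V genes none were higher and 67 lower, of which 5 fell at least 2-fold. V genes are near copies of one another, so single members are uncertain. Of 626 processed pseudogenes 140 were lower and 29 higher, so the share called lower was no larger than among all tested genes. Mir155hg, the host of the microRNA miR-155, was at 14.6, 15.6 and 14.2 CPM in the controls and 61.4, 71.3 and 65.4 CPM after cGAMP (log2 fold change 2.16 with SE 0.10, edgeR adjusted p = 2.35e-10). Peg13, an imprinted RNA, was at 44.1, 53.6 and 47.3 CPM in the controls and 12.1, 11.3 and 12.1 CPM after cGAMP. Gm13822 rose by 3.30, A930037H05Rik by 2.07 and Gm42047 by 2.02, and Gm34215, AI427809, Gm15326 and Gm19585 fell by 3.22, 1.89, 1.73 and 1.69. Gm26917 was at 252, 8.48 and 317 CPM in the controls and 932, 1580 and 1370 CPM after cGAMP, with control replicate 2 far below the others, and lost its call in several alternatives, among them the one without control replicate 1 (edgeR adjusted p = 0.087).

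**Figure D5:**
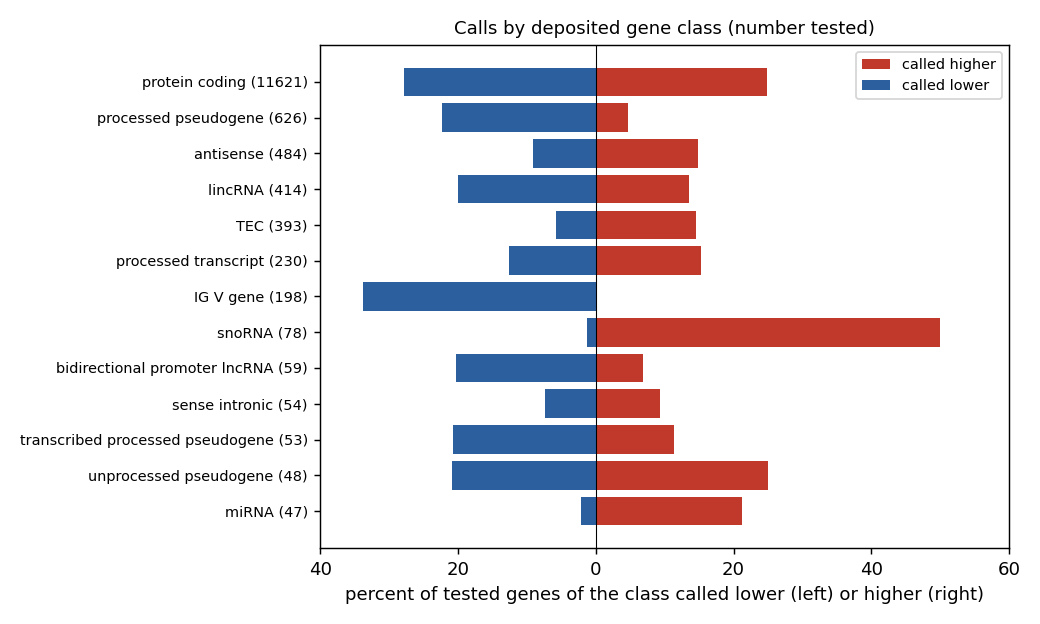
Percent of the tested genes of each deposited class (rows, number tested in brackets) called higher (right, red) or lower (left, blue). Small nucleolar RNA genes lie almost wholly to the right, with 39 of 78 higher, and immunoglobulin V genes wholly to the left, with 67 of 198 lower.

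The same exposure of Tmem173-/- cells gave no called gene with edgeR, DESeq2 or limma-voom (0% of 14473). At an unadjusted p of 0.05 these tools gave 203, 216 and 235 genes. Without the filter beyond 1 count, edgeR called 23. The response differed between genotypes for 31.6% of tested genes (4569), with the wild type response the higher one for 2037 and the lower one for 2532. Ifih1 was at 9.48, 8.13 and 12.4 CPM in Tmem173-/- controls and 10.8, 9.55 and 10.5 CPM in Tmem173-/- cells after cGAMP (difference of the responses 4.96 on the log2 scale, SE 0.27, edgeR adjusted p = 6.04e-08). Fcmr was at 1840, 1910 and 1950 CPM in Tmem173-/- controls and 1630, 2020 and 1740 CPM in Tmem173-/- cells after cGAMP (difference of the responses -1.56 on the log2 scale, SE 0.15, edgeR adjusted p = 2.53e-06), and Mxd4 at 152, 168 and 164 CPM in Tmem173-/- controls and 158, 168 and 167 CPM in Tmem173-/- cells after cGAMP (difference of the responses -2.44 on the log2 scale, SE 0.12, edgeR adjusted p = 2.27e-09). None of these 3 genes passed in Tmem173-/- cells. For Hspa8 and Npm1, which were called in wild type cells, the differences between genotypes of 0.52 and 0.47 did not pass. Of the 978 genes called and at least 2-fold higher in wild type cells, 657 had a response that differed between genotypes. None of the 3 tested interferon genes did, and neither did Ifi204 and Ifi27l2a (edgeR adjusted p = 0.117 and 0.155). Ifna4 was at 0 CPM in every Tmem173-/- library, and Ifna1 in every one but cGAMP replicate 2 (0.133 CPM). With so few counts the SE of their differences was 9002 and 14.5, so the test cannot decide for them. Ifi204 was at 0 to 0.261 CPM in the Tmem173-/- libraries, and the SE of its difference was 1.76.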

How the data were processed

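RNA of 12 libraries was compared, 3 per group, of which the 6 wild type libraries carry the comparison. The authors deposited whole-number counts per gene and FPKM values. Per the submitters' processing notes, fastp, STAR and featureCounts were used, with the builds GRCm38 and mm10. Versions, settings and strandedness are not given in the sources used here. FPKM in the text is the deposited FPKM divided by the TMM factor of its library. Counts were fitted in R 4.3.3 with edgeR 4.0.16, using a mean for each of the 4 groups, filterByExpr by group (minimum count 10), TMM scaling, robust quasi-likelihood F tests and Benjamini-Hochberg adjustment over 14473 genes. SE is the size of the log2 fold change over the square root of F. Alternatives used DESeq2 1.42.0 and limma 3.58.1. The steps were tested on simulated data. Floors cover counting error only.

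The members, the gene lists, the motifs and the rule for named genes were chosen with earlier results of these data known. The rule took genes by FPKM difference (12 each way), by fold (25 each way, at least 5 CPM, groups apart), the leading and contrary members of each list, runs of 4 or more neighbours, 5 non-coding genes each way, and Tmem173 and Ifnb1. Further list members, Inhbb, Pgk2, Mybl2 and the genes low in control replicate 2 were singled out after their values were seen. Promoter windows were restricted to protein-coding genes outside chromosome 18, the mitochondrial genome and scaffolds after coverage was seen. On all chromosomes 80.3% of tested genes had a window, and 4 of 6 classes lay at 78.2% to 79.8%. With the restriction 82.4% had one. Some members of the lists are counted but not reported here by name.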

Additional observations from a re-analysis of the deposited data

Results flagged for a closer look

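The cGAMP response differed between wild type and Tmem173-/- cells for 4569 of 14473 tested genes by the edgeR interaction test (adjusted p under 0.05). Each group had 3 libraries. Control cells of both genotypes held similar levels of Tmem173 RNA, so the difference rests on the labels. With cGAMP, this transcript fell in wild type cells (log2 fold change -1.01) but not in Tmem173-/- cells (0.01).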

How the results depend on the processing

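Over 14 alternatives the counts of genes higher, lower and changed at least 2-fold in wild type cells, and of genes whose response differed between genotypes, stayed within 1.5 times their values wherever they were run. A further one, a test against a fold of 2 (glmTreat), called 329 genes higher and 334 lower in place of 978 and 1004. Without the filter beyond 1 count, 23 genes in place of 0 were called in Tmem173-/- cells. In that fit Hsp90aa1 also passed (edgeR adjusted p = 2.26e-40) despite its spread among the controls. Leaving out 1 wild type library at a time gave 2760 to 3003 genes higher and 3243 to 3481 lower, 836 to 1052 higher and 939 to 1042 lower by at least 2-fold, and 3845 to 4399 genes that differed between genotypes. Library totals alone moved the median log2 fold change of all genes from -0.0036 to 0.0645. The replicate number within a genotype as a block gave 3699 genes higher and 4050 lower, 1027 and 1015 by at least 2-fold, 5660 that differed between genotypes and 0 in Tmem173-/- cells. With the block Mki67, Ccnb1 and Plk1 passed (edgeR adjusted p = 0.000439, 0.00741 and 0.0189). Deviations of same-numbered wild type libraries correlated at r of 0.300, 0.218 and 0.0834, and each library correlated best with its own number, but the labels do not say that a number marks a mouse. Leaving out 1 library at a time turned the sign of uncalled named genes, with ranges of -0.04 to 0.1946 for Cd68, -0.0938 to 0.1224 for Ctsz, -0.0327 to 0.3468 for Jak3, -0.1277 to 0.0713 for Lamp1, -0.1937 to 0.024 for Lamp2, -0.4831 to 0.0167 for Nqo1, -0.0532 to 0.0064 for Rel, -0.0061 to 0.0622 for Relb, -0.5622 to 0.6141 for Rpl12, -0.0528 to 0.121 for Slamf6, -0.1466 to 0.0939 for Slfn2, -0.0894 to 0.1105 for Slfn9, -0.0287 to 0.0976 for Tlr9, -0.027 to 0.9459 for mt-Rnr1 and -0.4476 to 0.6415 for mt-Rnr2. The sign also turned with DESeq2, at 0.0043 for Lamp1. The sign also turned with library totals alone, at 0.06 for Lamp1, 0.0411 for Rel and 0.0355 for Slfn2. The sign also turned with median-of-ratios scaling, at 0.0043 for Lamp1. The sign also turned with only the 6 wild type libraries, at -4e-04 for Rpl12. The sign also turned without both wild type replicate 1 libraries, at -0.0184 for Ctsz, 0.0032 for Lamp1, 0.0102 for Rel, -0.0107 for Slamf6 and -0.1532 for Slfn9. Of the 362 genes named, 70 changed a call or a sign in at least 1 alternative. Among comparisons that kept their sign, 121 lost the call and 64 gained one. In 34 comparisons the sign turned, and of these Rpl12 and mt-Rnr2 also gained a call without control replicate 2. The causes were not tested.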

Other observations

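Control replicate 2 stood apart at a specific set of transcripts. Among 8424 genes whose other 2 controls lay within 2-fold of each other and above a mean of 10 CPM, 16 were more than 4-fold below both in this library and 1 was more than 4-fold above (on CPM with 0.5 added). In the other 11 libraries the same rule, applied within each group, gave 0 or 1 gene in each direction. The rule was chosen after the values were seen. The 16 included both mitochondrial ribosomal RNAs, with mt-Rnr2 at 1020, 16.8 and 875 CPM and mt-Rnr1 at 321, 11.5 and 309 CPM in the controls, and all 8 tested genes with a symbol starting with Rrp. Dis3 and Exosc5, subunits of the RNA exosome, were at 78.2, 18.1 and 75.9 and 64.4, 10 and 70.3 CPM. Rpl12, a ribosomal protein gene, was at 1910, 91 and 2610 CPM, Hsp90aa1 at 869, 13.4 and 969 CPM, and the predicted genes Gm26917 and Gm23935 at 252, 8.48 and 317 and 1500, 88 and 938 CPM. With all libraries 1 of the 16 was called after cGAMP, and without control replicate 2 there were 9 called higher and 2 lower. Rpl12 was then at -0.56 in place of 0.00 on the log2 scale (edgeR adjusted p = 0.0115). What sets this library apart at these genes was not tested.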
